A study of Homo sapiens with 4 samples.

Results

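Chromosome 9 was examined by its arms in the accessible chromatin of HK1 cells, an established nasopharyngeal carcinoma line. All peaks whose summit lay on chromosome 9 were taken, 10840 of the 250225 peaks in 4 lists, and were divided at 43 Mb (GRCh38) into a short arm, 9p, with 2451 entries and a long arm, 9q, with 8389. The chromosome and its split were selected on the genotype contrast of these same data, namely peak counts per bin and the summit pileups of shared peaks in FLI1-KO against WT cells. The genotype values given here are therefore a description with no test. The contrast of IFN-γ against no treatment was not used in the choice.

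The assay for transposase-accessible chromatin (ATAC-seq) was run on WT cells and on cells with FLI1, a transcription factor of the ETS family, knocked out with a guide RNA (sgFLI1), each left as control or treated with the cytokine interferon gamma (IFN-γ). This gave 4 libraries, WT, WT-IFNg, sgFLI1 and sgFLI1-IFNg, with 1 peak list each. Every group shares the HK1 background, and the contrasts ask how loss of FLI1 and IFN-γ move accessibility. The study lists 2 guides against human FLI1. Which of them made these cells, whether the line was 1 clone or a pool, and whether the control cells carried a guide of their own were not given in the sources used here. With 1 library per group no test between conditions was possible, and all intervals below are 95% intervals that cover counting error only.

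A nucleosome-free stretch of DNA is cut readily by the transposase, so the tags piled up at a peak summit rise with how open the site is. They also rise with how many copies of that DNA a cell carries, since every copy is cut. Chromosome 9 is often altered in carcinoma of the nasopharynx, and its short arm carries the cell cycle inhibitor genes CDKN2A and CDKN2B, the type I interferon genes and the JAK2, CD274 and PDCD1LG2 cluster. Its long arm carries PTCH1, TSC1 and NOTCH1 among other growth regulators. Openness and DNA copy number cannot be told apart in any genotype ratio below, because no input DNA was analysed here.

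The sequences below show what peaks of the short arm look like, in 200 bases of the plus strand about the summit (hg38). Some are distal peaks, more than 3 kb from a transcription start site (TSS) of a protein-coding gene. Start sites of non-coding genes were not counted. Of the distal peaks, those were taken whose lowest −log10 q over the 4 lists was highest. The others are peaks listed in both libraries of 1 genotype and neither of the other. Capitals mark an AP-1 motif (TGANTCA, either strand) or an ETS core (CCGGAAGT, either strand). Windows holding untranslated bases were passed over, which removed the strongest promoter peaks and the first WT-only peak of the arm.
9p, highest distal peak of bins 1 to 3, chr9:6681363-6681562: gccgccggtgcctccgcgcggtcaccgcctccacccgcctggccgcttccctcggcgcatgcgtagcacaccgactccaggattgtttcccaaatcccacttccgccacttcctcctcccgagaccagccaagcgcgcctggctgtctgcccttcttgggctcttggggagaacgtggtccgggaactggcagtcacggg
9p, highest distal peak of the whole arm, chr9:37079718-37079917: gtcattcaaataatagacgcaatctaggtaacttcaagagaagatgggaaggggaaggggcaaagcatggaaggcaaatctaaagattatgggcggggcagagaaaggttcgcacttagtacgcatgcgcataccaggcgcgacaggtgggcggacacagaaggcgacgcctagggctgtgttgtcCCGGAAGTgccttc
9p, both WT lists only, chr9:29348982-29349181: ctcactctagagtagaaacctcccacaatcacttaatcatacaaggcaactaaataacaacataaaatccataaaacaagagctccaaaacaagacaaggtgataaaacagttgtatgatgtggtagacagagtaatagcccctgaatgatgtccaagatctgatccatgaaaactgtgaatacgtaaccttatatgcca
9p, both sgFLI1 lists only, chr9:16030553-16030752: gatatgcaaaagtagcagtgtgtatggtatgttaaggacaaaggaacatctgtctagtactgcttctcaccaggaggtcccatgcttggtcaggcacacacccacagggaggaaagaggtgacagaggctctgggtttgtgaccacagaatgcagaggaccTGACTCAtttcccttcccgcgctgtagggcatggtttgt
The first of these lay in an intron of the gene ENSG00000236924, at −35734 bases (upstream) from the TSS of GLDC, an enzyme of glycine breakdown. Its summit held 80 tags in WT, 107 in WT-IFNg, 186 in sgFLI1 and 146 in sgFLI1-IFNg, so that both FLI1-KO libraries stood above both WT libraries before any correction for depth. The second lay in an intron of EBLN3P, at −40756 bases from the TSS of ZCCHC7, and held 124, 134, 86 and 77 tags in the same order, the opposite direction. The peak of the WT lists only was intergenic, at −135481 bases from the TSS of LINGO2, with 38 and 30 tags, and that of the sgFLI1 lists only lay in an intron of CCDC171 with 46 and 45 tags.

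The long-arm sequences follow by the same choice.
9q, highest distal peak, chr9:97877020-97877219: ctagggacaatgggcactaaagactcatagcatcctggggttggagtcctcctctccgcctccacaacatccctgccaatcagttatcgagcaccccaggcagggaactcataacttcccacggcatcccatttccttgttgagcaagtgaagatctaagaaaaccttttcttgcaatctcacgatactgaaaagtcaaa
9q, both WT lists only, chr9:94805655-94805854: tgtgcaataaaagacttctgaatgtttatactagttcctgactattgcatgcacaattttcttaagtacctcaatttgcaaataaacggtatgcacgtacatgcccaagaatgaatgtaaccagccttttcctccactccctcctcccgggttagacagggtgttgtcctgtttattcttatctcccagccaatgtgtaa
9q, both sgFLI1 lists only, chr9:124286514-124286713: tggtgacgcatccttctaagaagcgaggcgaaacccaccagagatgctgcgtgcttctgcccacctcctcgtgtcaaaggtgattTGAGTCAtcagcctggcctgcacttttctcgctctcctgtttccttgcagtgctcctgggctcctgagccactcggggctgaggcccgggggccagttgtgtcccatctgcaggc
The distal 9q peak lay between genes, 23894 bases downstream of the TSS of FOXE1, a thyroid transcription factor, with 166, 159, 148 and 132 tags in WT, WT-IFNg, sgFLI1 and sgFLI1-IFNg. The WT-only peak was in an intron of AOPEP with 51 and 52 tags, and the sgFLI1-only peak was in an intron of NEK6, a mitotic kinase, 174 bases past its TSS, with 52 and 52 tags. An AP-1 motif occurred in 22.4% of the 938 merged 9p regions, in 23.2% of the 3055 merged 9q regions and in 22.6% of all 93211 regions, counted within 100 bases on either side of the summit. An ETS core occurred in 1.60% on 9p, 1.15% on 9q and 0.991% over all regions, and a CTCF motif in 6.40%, 6.09% and 6.52%. Each arm's 95% Wilson interval for AP-1, ETS and CTCF held the share over all regions.

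Over all chromosomes there were 59629 peaks in the WT list, 67470 in WT-IFNg, 63203 in sgFLI1 and 59923 in sgFLI1-IFNg, with tag densities of 6.86 to 8.84 tags per kb and median summit pileups of 26 to 31 tags. The WT libraries were the deeper pair. The FLI1 promoter, on chromosome 11, had a peak of 12 tags in WT and 22 in WT-IFNg and none in either sgFLI1 list, which does not show the cut itself. Of 10 epithelial marker genes, 5 to 6 per list had a promoter peak, with summed pileups of 256 to 400 tags. KRT5, KRT14 and TP63, which mark squamous basal cells, and KRT6A had none in any list, whereas SFN held 106 to 118 tags. Leukocyte markers had peaks at 1 to 2 of 6 genes (23 to 58 tags, with PTPRC, CD3E, LYZ and SPI1 at 0), endothelial markers at 0 to 2 of 3 (0 to 48 tags, VWF at 0) and fibroblast markers at 2 of 3 (157 to 194 tags, COL3A1 at 0). The part of such markers in the results was not tested.

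Peak counts of the arms differed in opposite directions between genotypes. The short arm held 532 peaks in WT, 595 in WT-IFNg, 670 in sgFLI1 and 654 in sgFLI1-IFNg. As shares of their lists these were 0.892% (Wilson 0.820 to 0.971), 0.882% (0.814 to 0.955), 1.06% (0.983 to 1.14) and 1.09% (1.01 to 1.18). The long arm held 2156, 2408, 1958 and 1867 peaks, or 3.62% (3.47 to 3.77), 3.57% (3.43 to 3.71), 3.10% (2.97 to 3.24) and 3.12% (2.98 to 3.26). The intervals cover the counting of peaks within a library and give no test of genotype.

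The short-arm excess sat in its outer part. Bins 1 to 3, the first 30 Mb, held 278 peaks in WT, 309 in WT-IFNg, 414 in sgFLI1 and 410 in sgFLI1-IFNg, whereas the rest of the arm held 254, 286, 256 and 244. On 9q the untreated counts differed most in bins 8 and 9. Bin 8 (70 to 80 Mb) held 209, 222, 131 and 136 peaks and bin 9 (80 to 90 Mb) 223, 259, 149 and 143, both FLI1-KO libraries below both WT libraries. In bin 13 (120 to 130 Mb) they were 491, 548, 484 and 443, a gap in counts mainly under IFN-γ. In bin 14, at the end of the arm, the counts were 486, 555, 493 and 472, where the genotypes overlapped. As shares of their lists, both FLI1-KO libraries were below both WT libraries in each of these bins. Bin 13 held 0.823%, 0.812%, 0.766% and 0.739%, and bin 14 held 0.815%, 0.823%, 0.780% and 0.788%. Bin 6 (50 to 60 Mb) held no peak in any list.

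**Figure D1:**
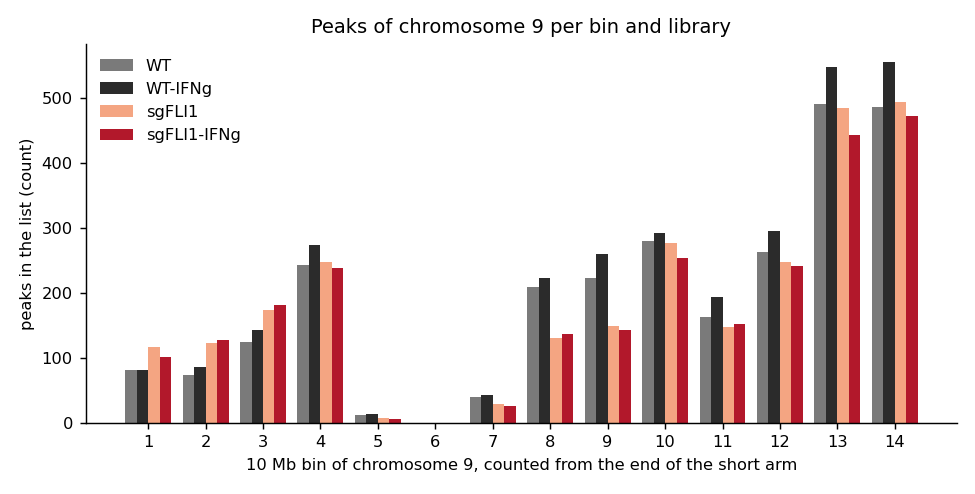
Number of listed peaks (vertical axis, count) in each 10 Mb bin of chromosome 9 (horizontal axis) for the 4 libraries, 1 bar each. In bins 1 to 3 the sgFLI1 and sgFLI1-IFNg bars stand above both WT bars, and in bins 8 and 9 they stand below them, 131 to 149 against 209 to 259.

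Summit pileups of shared peaks, that is peaks overlapping one to one with more than 60 tags summed over the pair, were compared after division by each library's tag density and centring on the genome's median. In the first 30 Mb of 9p, 119 shared peaks had a median of 50 tags in WT and 73 in sgFLI1, and 118 had a median of 53 in WT-IFNg and 67 in sgFLI1-IFNg. The median log2 ratio of FLI1-KO over WT was 0.78 without IFN-γ (quartiles 0.49 to 1.01) and 0.78 with it (0.56 to 0.99), or 1.72-fold and 1.71-fold. Summed over these peaks the log2 ratio was 0.74 (conditional binomial interval 0.70 to 0.79) and 0.71 (0.67 to 0.76). Of these peaks 112 of 119 and 110 of 118 lay above 0. The genotype pairs have no library in common, but both were used in the choice of the chromosome, so their likeness is no independent support.

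The rest of the short arm stood near the genome's median, at 0.00 over 124 peaks untreated and 0.08 over 120 peaks under IFN-γ. Over the whole of 9p the median was 0.31 (243 peaks) and 0.29 (238 peaks), values that average parts unlike each other. On 9q the typical shared peak held fewer tags in the FLI1-KO cells, with a median of 74.5 tags in WT against 56 in sgFLI1 and of 82 in WT-IFNg against 50 in sgFLI1-IFNg. The 9q median log2 ratio was −0.30 over 1022 peaks (quartiles −0.53 to −0.06, 0.812-fold) and −0.28 over 1061 (−0.51 to −0.06, 0.822-fold). All other chromosomes together had medians of 0.01 and 0.01. The 9q level was not particular to this arm, since chromosome 16 had medians of −0.30 and −0.27, chromosome 18 of −0.35 and −0.40 and chromosome 19 of −0.23 and −0.18.

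Peaks past a 1.5-fold difference divided in the same way. On 9p 90 of 243 shared peaks (37.0%) were at least 1.5-fold higher in sgFLI1, against 8.63% of all shared peaks of the genome, and under IFN-γ 91 of 238 (38.2%), against 7.49%. Nearly all of them lay in the first 30 Mb, where 83 of 119 and 83 of 118 passed. On 9q 213 of 1022 (20.8%) were at least 1.5-fold lower, against 7.31%, and 213 of 1061 (20.1%) under IFN-γ, against 8.24%. Nothing is read from these shares as evidence, since the contrast chose the chromosome.

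**Figure D2:**
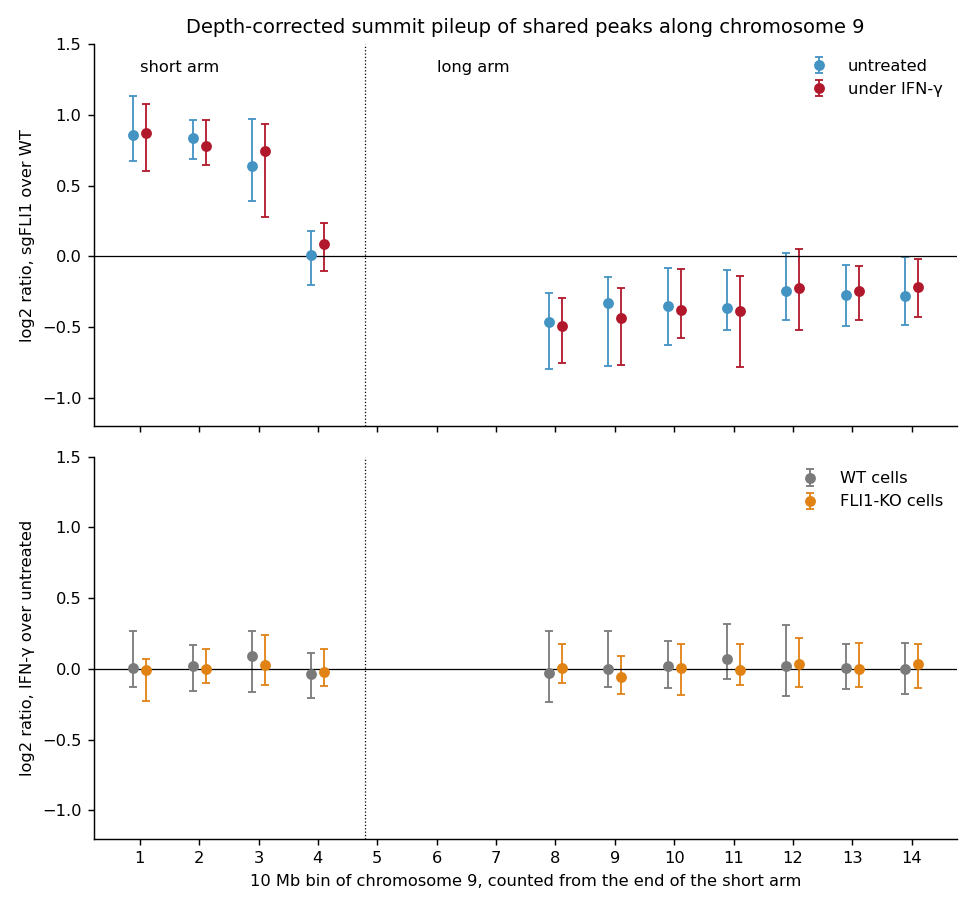
Median log2 ratio of depth-corrected summit pileup (vertical axes) per 10 Mb bin of chromosome 9 (horizontal axis), for sgFLI1 over WT (upper panel, untreated and under IFN-γ) and for IFN-γ over untreated (lower panel, WT and FLI1-KO cells), with bars for the quartiles over shared peaks and a dotted line at the split. The genotype medians are 0.64 to 0.87 in bins 1 to 3, near 0 in bin 4 and −0.22 to −0.49 in bins 8 to 14, while those of IFN-γ stay near 0.

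Among the 10 Mb bins of the genome with at least 20 shared peaks, the bins 1, 2 and 3 of chromosome 9 held the first 3 places from the top in both pairs, of 286 bins untreated and 287 under IFN-γ. Their medians were 0.86, 0.84 and 0.64 untreated and 0.87, 0.78 and 0.74 under IFN-γ, against a 95th percentile of all bins of 0.26 and 0.24. Bin 8 was the fourth lowest in both pairs, at −0.46 and −0.49. The other 9q bins ran from −0.36 to −0.24 untreated and from −0.44 to −0.22 under IFN-γ, so that bins 10 and 11 lay below the genome's 5th percentile of −0.34 and −0.37 in both pairs and bins 12 to 14 lay above it. Bins of other chromosomes went as low as −0.92 and −0.94.

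**Figure D3:**
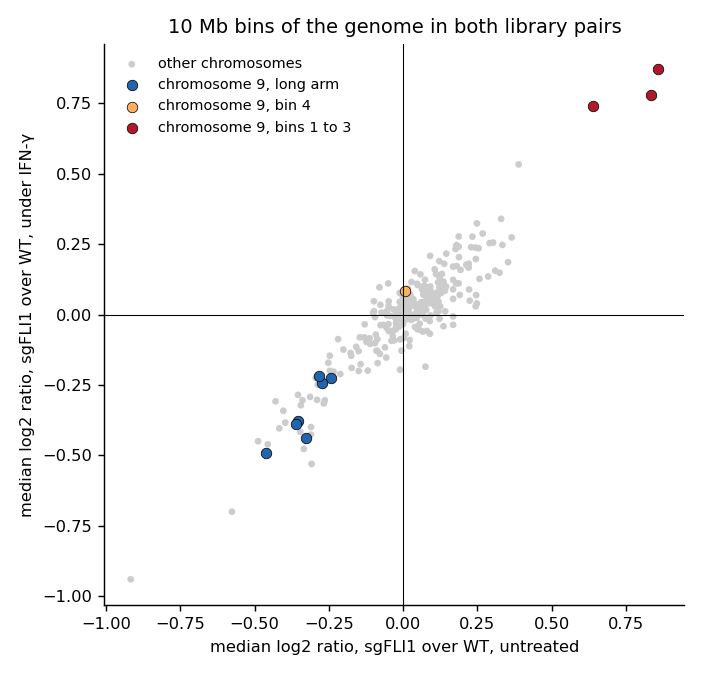
Median log2 ratio of sgFLI1 over WT in 10 Mb bins of the genome, untreated (horizontal axis) against under IFN-γ (vertical axis), 1 point per bin, with the bins of 9p and 9q marked. Bins 1 to 3 of 9p stand apart at the upper right, at 0.64 to 0.86 untreated and 0.74 to 0.87 under IFN-γ, and the 9q bins lie at the lower left among bins of other chromosomes.

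Finer bins located the difference within the short arm. In 1 Mb bins with at least 5 shared peaks in each pair, 13 of 13 bins of the first 30 Mb lay above 0 in both pairs (0.25 to 1.10 untreated, 0.13 to 0.90 under IFN-γ), and 50 of 52 bins of 9q lay below 0 in both. The single 9q bin above 0 in both was 116 to 117 Mb, at 0.14 and 0.12. Across the 52 bins of 9q the medians of the pairs had a Pearson correlation of 0.67 and a Spearman correlation of 0.39. Across single peaks found in all 4 lists it was 0.57 on 9q (981 peaks), 0.70 in the first 30 Mb (114 peaks) and 0.56 on other chromosomes (25379 peaks). Each point shares its sequence and mean depth between the pairs, so these correlations are a description.

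Peak by peak, the higher level ended among peaks near TEK and EQTN, past 27 Mb. TUSC1, at 25.68 Mb, had 129 tags at its start site in WT and 165 in sgFLI1 (log2 ratio 0.52). The start site of IFT74, a ciliary transport gene at 26.95 Mb, had 142 and 226 tags (0.84). A peak in the region of TEK, the angiopoietin receptor gene, at 27.18 Mb had 55 and 98 tags (1.00) and under IFN-γ 59 and 90 (1.03). Other peaks nearest to IFT74 had 0.49 and 0.53 untreated, and others nearest to TEK 0.64 and 0.46. The untreated 1 Mb median was 0.88 at 21 to 22 Mb and already 0.43 at 23 to 24 Mb. Under IFN-γ those bins had 0.76 and 0.79. Up to the stretch past 27 Mb the FLI1-KO libraries were the higher ones in each peak named here.

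Past it the ratios lay on both sides of 0, as at the start site of MOB3B, at 27.53 Mb (−0.23 untreated and 0.35 under IFN-γ). A peak upstream of EQTN at 27.33 Mb had 42 and 39 tags (0.06, and 0.13 under IFN-γ). The start site of C9orf72, at 27.57 Mb, had 151 and 147 tags (0.13) and under IFN-γ 133 and 109 (0.13), and that of LINGO2, at 29.21 Mb, had 60 and 36 (−0.57) and 62 and 29 (−0.67). The boundary was chosen after these values were seen. Taken at this place, it left 114 peaks before it with a median of 0.80, 110 of them above 0, and 129 after it with a median of −0.00, 64 of them above 0. Under IFN-γ there were 113 before it at 0.79 (107 above 0) and 125 after it at 0.09 (79 above 0).

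Among 1 Mb bins with at least 5 shared peaks in each pair, the lowest of 9q was 83 to 84 Mb, with medians of −1.04 over 12 peaks and −0.94 over 10. The start site of FRMD3 had 56 tags in WT and 17 in sgFLI1, and 78 in WT-IFNg and 14 in sgFLI1-IFNg (−1.55 and −2.06). UBQLN1, a proteasome shuttle gene, had 215 and 102 and then 231 and 83 (−0.91 and −1.05), and HNRNPK, an RNA-binding protein gene, had 267 and 139 and then 279 and 122 (−0.77 and −0.77). Start sites of genes that most cells use were thus among the lower ones. Outside the bin the next peak, at 84.18 Mb near SLC28A3, had 0.54 and −0.47, and the start site of NTRK2 −0.15 and −0.55. The bin 73 to 74 Mb was also low, at −0.79 (7 peaks) and −0.75 (8 peaks). The bin 79 to 80 Mb, with too few peaks for this ranking, had −1.18 (2 peaks) and −2.34 (3 peaks). The last shared peaks below the split untreated, at 41074954 and 41274056, had −0.25 and −0.08 (40 and 30 tags, then 45 and 38). The first above it, at 62838359 and 66900657, had −0.64 and −0.62 (56 and 32, then 57 and 33). With this gap between them no change could be placed at the split itself. Under IFN-γ the last and first shared peaks had −0.30 and 0.15 below it and −0.70 and −0.23 above it, so that the sides overlapped.

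With peaks put in 3 classes of equal size by summed pileup, the median of the first 30 Mb was 0.82, 0.78 and 0.79 from the weakest to the strongest untreated, and 0.73, 0.79 and 0.78 under IFN-γ. On 9q it was −0.27, −0.29 and −0.32, and −0.25, −0.27 and −0.30. In the rest of 9p it was −0.12, 0.04 and −0.01, and 0.16, 0.11 and 0.02. Letting in weaker peaks, with more than 20 tags summed, lowered the first 30 Mb to 0.66 and 0.65. The local background, which the peak caller takes from a wider window about the peak, its own tags included, had medians of 0.76 and 0.76 in the first 30 Mb, −0.06 and 0.02 in the rest of 9p and −0.29 and −0.28 on 9q. Since that window holds the summit, summit and background ratios are not independent.

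The 4 libraries were also set side by side over the 1208 chromosome 9 peaks found in all 4 lists, each relative to their mean, which ties the values to each other. In the first 30 Mb (114 peaks) the median level, on a log2 scale, was −0.40 in WT, −0.41 in WT-IFNg, 0.40 in sgFLI1 and 0.40 in sgFLI1-IFNg. On 9q (981 peaks) it was 0.15, 0.15, −0.16 and −0.14, and in the rest of 9p (113 peaks) 0.03, −0.04, 0.03 and 0.00. Both FLI1-KO libraries were above both WT libraries at 102 of 114 peaks (89.5%) in the first 30 Mb, at 22 of 113 (19.5%) in the rest of 9p and at 75 of 981 (7.65%) on 9q, against 23.6% of all 26587 such peaks. Both were below at 3 of 114 (2.63%), 20 of 113 (17.7%) and 595 of 981 (60.7%), against 24.2%.

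**Figure D4:**
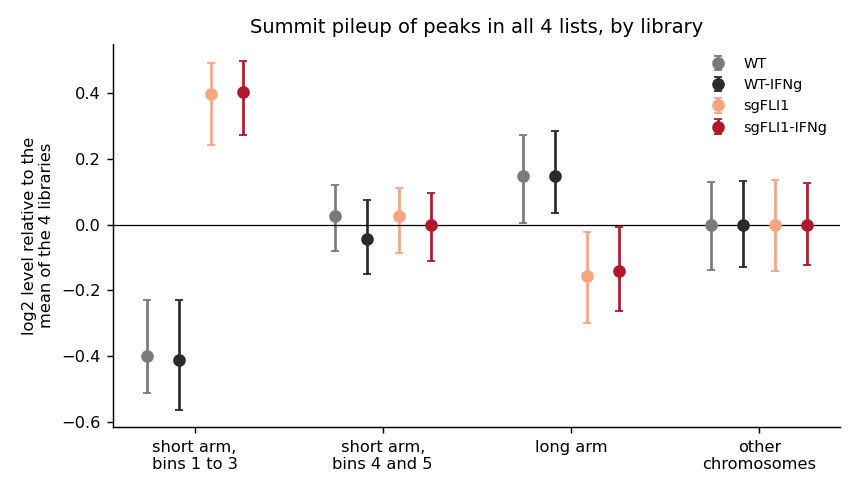
Median depth-corrected summit pileup relative to the mean of the 4 libraries (vertical axis, log2) for peaks in all 4 lists, by library, in the short arm's bins 1 to 3, its bins 4 and 5, the long arm and all other chromosomes, with bars for the quartiles over peaks. The WT and FLI1-KO pairs stand at −0.40 to −0.41 and 0.40 in bins 1 to 3 and at 0.15 and −0.14 to −0.16 on the long arm.

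Some peaks had no counterpart in the other genotype. Of the sgFLI1 peaks, 229 of 670 on 9p (34.2%) overlapped no peak of WT, as did 341 of 1958 on 9q (17.4%), against 25.3% of the list, and in the first 30 Mb it was 180 of 414 (43.5%). Under IFN-γ these were 208 of 654 (31.8%) and 241 of 1867 (12.9%), against 19.8%, and 169 of 410 (41.2%) in the first 30 Mb. Of the WT peaks 94 of 532 on 9p (17.7%) and 558 of 2156 on 9q (25.9%) had no sgFLI1 counterpart, against 21.4%, and of the WT-IFNg peaks 144 of 595 (24.2%) and 794 of 2408 (33.0%), against 29.0%. Such peaks were weak, with median pileups of 12.5 to 16 tags on the arms.

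Regions present in both libraries of 1 genotype and neither of the other were fewer. On 9p 72 of 938 merged regions (7.68%) were in both sgFLI1 lists only, 62 of them in the first 30 Mb, and on 9q 69 of 3055 (2.26%), against 3.56% of all regions. In both WT lists only were 35 on 9p (3.73%) and 193 on 9q (6.32%), against 4.20%. After those printed above, the strongest sgFLI1-only peaks were intergenic near FAM240B (53 and 38 tags) and at −55284 bases from the TSS of MTAP (29 and 27 tags) on 9p, and in introns of PAPPA (33 and 26) and COL5A1 (42 and 41) on 9q. The strongest WT-only peaks were near SMU1 (80 and 102) and in an intron of LINGO2 (27 and 30) on 9p, and in an intron of DAPK1 (41 and 47) and next to the start site of FANCC (42 and 41) on 9q.

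Single sites went far past the level of their arm. A peak in an intron of SAXO1, with its summit at 18976715 of chromosome 9, had 11 tags in WT, 12 in WT-IFNg, 76 in sgFLI1 and 69 in sgFLI1-IFNg (log2 ratios 2.96 and 2.94). Peaks upstream of BNC2, a zinc finger gene, and in an intron of GLIS3 had 28, 29, 70 and 62 and 27, 28, 60 and 56 tags (1.49 and 1.51, 1.32 and 1.42). At each of these the FLI1-KO libraries were at least 2-fold above the WT libraries of the same treatment in raw tags.

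A few sites of the first 30 Mb went the other way. A peak in an intron of LINC01239, nearest to DMRTA1, had 68, 137, 33 and 47 tags (−0.88 and −1.13). On 9q the lowest ratio untreated was that of a peak at 114981262 in an intron of DELEC1, nearest to TNFSF8, the CD30 ligand gene, with 62, 64, 11 and 10 tags (−2.33 and −2.26). A peak upstream of TLE4, the lowest of them under IFN-γ, had 53, 92, 13 and 11 tags (−1.86 and −2.65). The highest 9q site against the trend lay in an intron of SARDH, with 37, 33, 100 and 87 tags (1.60 and 1.81). In the rest of 9p an intronic ZCCHC7 peak had 44, 65, 18 and 22 tags and an intronic PAX5 peak 49, 50, 89 and 71 tags, so that single sites differed there in either direction.

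Promoter peaks, with the summit within 1 kb of a TSS, were read for 112 listed genes of chromosome 9. Of 38 listed genes in the first 30 Mb, 18 had such a peak in both libraries of each pair, and 18 of 18 had a ratio above 0 untreated (median 0.86) and 17 of 18 under IFN-γ (median 0.86). The 21 genes with peaks in the rest of 9p had medians of 0.04 and 0.06. On 9q 40 of 47 genes lay below 0 untreated (median −0.30) and 41 of 46 under IFN-γ (median −0.26). Of all shared 9q peaks 809 of 1022 (79.2%) lay below 0 untreated. Nothing is thus read from the counts below 0 about the 9q gene groups that follow.

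The 3 genes of the JAK2 neighbourhood were higher in the FLI1-KO cells in both pairs. Most shared peaks of the first 30 Mb were too, with a median of 0.78 in each pair. JAK2 (chr9:4984390-5129948, plus strand), a kinase that carries the IFN-γ signal, had 97 promoter tags in WT, 109 in WT-IFNg, 160 in sgFLI1 and 121 in sgFLI1-IFNg (log2 ratios 0.89 and 0.57). CD274 (chr9:5450503-5470566, plus strand), which encodes the checkpoint ligand PD-L1, had 44 tags in WT (Poisson interval 32.0 to 59.1), 81 in WT-IFNg (64.3 to 100.7), 105 in sgFLI1 (85.9 to 127.1) and 96 in sgFLI1-IFNg (77.8 to 117.2). Its WT library was the lowest and its ratios were 1.42 and 0.67. PDCD1LG2, which encodes PD-L2, had 30, 44, 58 and 53 tags (1.12 and 0.69).

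The genes about CDKN2A were likewise higher, with medians of 0.64 and 0.87, at 5 of 5 genes untreated and 4 of 5 under IFN-γ. Of the 114 peaks of the first 30 Mb found in all 4 lists, 105 were above 0 in both pairs. Nothing is thus read from these counts about the CDKN2A neighbourhood itself. CDKN2A (chr9:21967752-21995301, minus strand) had 78, 94, 113 and 117 tags (0.70 and 0.74), CDKN2B 83, 93, 115 and 127 (0.64 and 0.87) and MTAP, a polyamine salvage enzyme, 65, 61, 114 and 91 (0.98 and 1.00). None of the 3 loci was without a peak in any library. KLHL9 had 57, 45, 60 and 85 tags (0.24 and 1.34), and DMRTA1 49, 71, 55 and 41 (0.33 and −0.37), the exception. The 16 listed type I interferon genes had no promoter peak in any list.

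Regulators of chromatin and transcription on 9p were above 0 at 10 of 11 genes untreated and 11 of 11 under IFN-γ (medians 0.71 and 0.66), 8 and 6 of them at least 1.5-fold, against 8.63% and 7.49% of all shared peaks. All of those that passed lie in the first 30 Mb. RFX3, a factor of ciliary genes, had 85, 91, 151 and 132 tags (1.00 and 0.96) and KDM4C, a histone demethylase, 97, 100, 153 and 137 (0.83 and 0.88). NFX1, past that stretch, had 152, 156, 140 and 133 (0.05 and 0.19), and the start site that CREB3 shares with TLN1 had 151, 141, 124 and 114 (−0.12 and 0.12).

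The 12 housekeeping genes of 9p had medians of 0.00 and 0.01, with 6 above and 6 below 0 in each pair. All but RCL1 lie beyond the first 30 Mb, and RCL1, named after its values were seen, had 71, 75, 105 and 113 tags (0.73 and 1.01). UBAP2 had 189, 187, 164 and 149 tags (−0.04 and 0.09), and the peak shared by BAG1 and CHMP5 136, 163, 110 and 104 (−0.14 and −0.23). The signalling and other genes had medians of 0.09 and 0.07 over 8 genes. RIGI, the cytosolic sensor of viral RNA, at 32.53 Mb, had 120, 145, 105 and 112 tags (−0.02 and 0.05), APTX 124, 122, 106 and 82 (−0.06 and −0.15), B4GALT1 91, 97, 88 and 77 (0.12 and 0.09) and FANCG 115, 115 and 86 in WT, WT-IFNg and sgFLI1-IFNg (−0.02 and 0.00). VLDLR with 11 tags and PTPRD with 8 had a promoter peak in WT-IFNg alone.

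On 9q the growth control genes had the lowest group median untreated, with medians of −0.52 and −0.39 and 7 of 7 below 0 in both pairs. NOTCH1 (chr9:136494433-136546048, minus strand), a receptor gene of squamous differentiation, had 173 tags in WT (Poisson interval 148.2 to 200.8), 174 in WT-IFNg (149.1 to 201.9), 78 in sgFLI1 (61.7 to 97.3) and 97 in sgFLI1-IFNg (78.7 to 118.3), with ratios of −0.98 and −0.42. PTCH1, the hedgehog receptor, had 112, 120, 68 and 69 (−0.55 and −0.38), TSC1, a brake on mTOR, 150, 156, 105 and 104 (−0.35 and −0.16), and FANCC, of the Fanconi DNA repair pathway, 155, 149, 84 and 92 (−0.72 and −0.27). Both FLI1-KO libraries were below both WT libraries in raw tags at all 4, and the WT libraries were the deeper pair. After depth correction the same order held at 60.7% of the 9q peaks in all 4 lists and at 24.2% of all such peaks. Nothing is thus read from it about these genes.

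Epithelial and barrier genes had medians of −0.37 and −0.45, with 10 of 11 and 9 of 10 below 0. Untreated, 79.2% of all shared 9q peaks lay below 0. KLF4, a factor of barrier formation, had 155 and 151 tags in the WT libraries and 100 in sgFLI1 (−0.46 and −0.16), TLE4, a Groucho corepressor, 167, 192, 106 and 74 (−0.49 and −0.95), GSN, which severs actin, 170 in WT, 129 in sgFLI1 and 114 in sgFLI1-IFNg (−0.23 and −0.40) and STOM, in the usual order, 177, 172, 132 and 120 (−0.25 and −0.10). ANXA1, which falls outside the naming rule and was picked after its values were seen, was the lowest of the group in both pairs with 167, 165, 52 and 56 tags (−1.51 and −1.14). Both group medians lay below those of all shared 9q peaks, −0.30 and −0.28, and that difference was not tested.

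Immune and signalling genes had medians of −0.26 and −0.30, with 6 of 9 and 8 of 10 below 0. TRAF2, an adaptor of the TNF receptor, had 171, 207, 120 and 113 tags (−0.34 and −0.45), ABL1 229, 237, 164 and 156 (−0.31 and −0.18), VAV2 179, 189, 131 and 121 (−0.28 and −0.22) and CTSL, a lysosomal protease, 89, 122, 83 and 70 (0.07 and −0.38). SYK, a kinase of immune receptors, had 19 and 17 tags in the WT libraries and no promoter peak in either sgFLI1 list. PTGS1 had 11 tags in sgFLI1 and none elsewhere within 1 kb, but within 3 kb a peak was in all 4 lists (21, 18, 21 and 14 tags).

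Factors and chromatin genes of 9q had medians of −0.29 and −0.11, with 7 of 8 and 7 of 7 below 0. EHMT1, a histone H3 methyltransferase, had 197, 180, 113 and 109 tags (−0.63 and −0.30), NR6A1 251, 233, 184 and 147 (−0.28 and −0.24), RAD23B 146, 156, 111 and 111 (−0.23 and −0.07) and RXRA, the retinoid X receptor, 117, 147, 115 and 102 (0.14 and −0.11). The housekeeping genes had medians of −0.29 and −0.22, with 10 of 12 below 0 in both pairs. SET had 199, 203, 153 and 129 tags (−0.21 and −0.23), NUP214 180, 202, 136 and 121 (−0.24 and −0.32), PSMD5 173, 194, 161 and 124 (0.06 and −0.22) and HSPA5, the chaperone BiP, 235, 227, 227 and 159 (0.12 and −0.09). The listed groups of 9q thus all had medians below 0, housekeeping genes included.

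**Figure D5:**
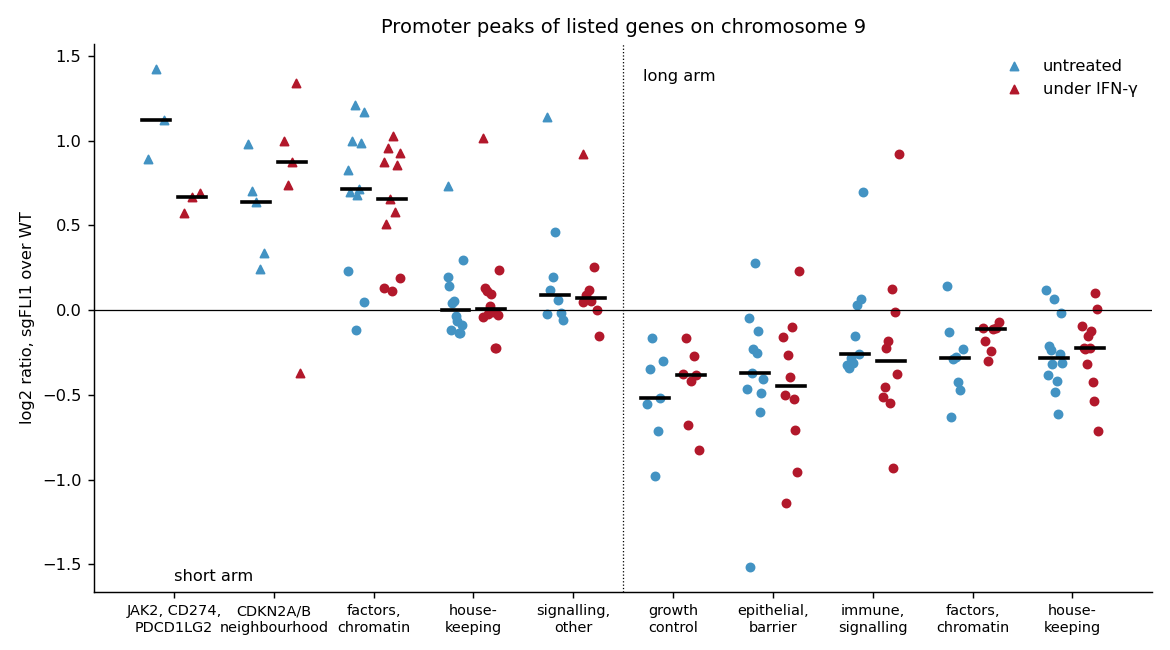
Log2 ratio of sgFLI1 over WT (vertical axis) of the promoter peak of each listed gene, by gene group (horizontal axis), untreated and under IFN-γ, 1 point per gene, with a black line at the group median and triangles for genes in the first 30 Mb. The medians of the JAK2 and CDKN2A neighbourhoods are 0.64 to 1.12, those of the 9p housekeeping genes 0.00 and 0.01, and those of the 9q groups −0.11 to −0.52.

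IFN-γ left the arms at the genome's median in both genotypes. The treated over untreated ratio had a median of 0.00 on 9p and 0.01 on 9q in WT cells (239 and 1192 shared peaks), and −0.01 and 0.01 in FLI1-KO cells (262 and 896). Bins of chromosome 9 with at least 20 shared peaks ran from −0.04 to 0.09 in WT cells and from −0.06 to 0.04 in FLI1-KO cells, within the −0.18 to 0.23 and −0.12 to 0.11 of the genome's bins. These pairs share their libraries with the genotype pairs.

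Peaks gained under IFN-γ were about as frequent on chromosome 9 as in the whole list in WT cells, 142 of 595 on 9p (23.9%) and 586 of 2408 on 9q (24.3%), against 25.2% of the list. Peaks lost were 87 of 532 (16.4%) and 341 of 2156 (15.8%), against 15.9%. In FLI1-KO cells 132 of 654 on 9p (20.2%) and 274 of 1867 on 9q (14.7%, Wilson 13.1 to 16.4) were gained, against 18.0%, and 149 of 670 (22.2%) and 371 of 1958 (18.9%, 17.3 to 20.7) were lost, against 22.2%. Both shares were thus lower on 9q than over the list in those cells, and no test across libraries was possible.

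Single sites of chromosome 9 gained tags with IFN-γ in WT cells. Peaks nearest to GADD45G, a stress-response gene, had 12 tags untreated and 63 treated (log2 ratio 2.32), in STOM 13 and 58 (2.08), in EHMT1 14 and 55 (1.90) and on 9p near DNAI1 23 and 79 (1.71). In FLI1-KO cells the largest was the promoter of ENG, a TGF-β co-receptor, with 26 and 48 tags (1.06), then that of TMEM8B with 28 and 51 (1.04). Regions in both IFN-γ lists and neither untreated one numbered 10 on 9p (1.07%) and 49 on 9q (1.60%), against 1.74% of all regions. The strongest by −log10 q in WT-IFNg, in an intron of SLC44A1, held 78 tags in WT-IFNg and 13 in sgFLI1-IFNg and one in SEMA4D 68 and 19. Next in this order, a region near HSPA5 had a smaller fold gap. Those near GADD45G and DENND1A had gaps at least as wide as that in SEMA4D. An order by WT-IFNg favours regions high in that library, so nothing is read from these gaps about genotype. At CD274 the ratio of treated to untreated was 0.81 in WT cells and 0.05 in FLI1-KO cells, and at PDCD1LG2 0.48 and 0.05. Whether these responses differed between genotypes was not tested, and they rest on the same 4 values per gene as the genotype ratios above.

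The merged regions of the arms also differed in position and GC content. Which regions are listed follows the peak counts used in the choice, so these features are not independent of it. Of 567 regions in the first 30 Mb, 62 were in both sgFLI1 lists only, 76 in sgFLI1 only and 76 in sgFLI1-IFNg only. Within 3 kb of a TSS of a protein-coding gene lay 20.9% of 9p regions (Wilson 18.4 to 23.6) and 25.6% of 9q regions (24.1 to 27.2). On other chromosomes it was 25.2%. In the first 30 Mb it was 15.2% (12.4 to 18.4) and in the rest of 9p 29.6% (25.2 to 34.5). The listed regions of the outer short arm were thus less often near such a TSS. Median GC content about the summit was 45.8% in the first 30 Mb, 51.2% in the rest of 9p and 52.2% on 9q, against 49.8% on other chromosomes. GC content was thus lowest where the genotype ratio was highest, and its part in the ratio was not tested.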

How the data were processed

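ATAC-seq was measured in 4 HK1 libraries, 1 per group, grouped by the genotype and treatment in the labels. The submitters' processing notes name Trimmomatic, FastQC, Bowtie2 2.3.4.1, SAMtools, Picard, MACS2 2.1.2, ChIPseeker and DiffBind, with build GRCh38. Per the study's methods, reads of low mapping quality and duplicates were removed and peaks passing a limit on the irreproducible discovery rate were kept. Whether the deposited lists are those, or pool replicates, and whether tags were shifted, were not given in the sources used here. The authors deposited MACS2 peak lists holding a score, a fold enrichment, −log10 p and −log10 q, and a summit offset in other columns, called per library. All lists ended below a q of 0.05.

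The summit pileup and its local background were recovered from the deposited fold enrichment and −log10 p, with an error below 0.001 for 100% of peaks. Tag density was the lowest background divided by the shortest peak length, in tags per kb. Peaks overlapping one to one by at least 1 bp with a summed pileup over 60 tags were compared as log2 ratios, depth-corrected and centred on the genome's median. Scripts were tested on simulated data and ran in Python 3.11.15 with pandas 2.3.3 and numpy 2.4.6 for tables, scipy 1.17.1 for intervals and, for plots, matplotlib 3.10.9. Intervals were Wilson (shares), exact Poisson (tags) and exact conditional binomial (sums) at 95%. Genes came from GENCODE release 44 and sequences from the hg38 genome. The distance of a peak to the nearest TSS, and the 3 kb limit on it, used protein-coding genes only.

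The members and gene lists were chosen with earlier results of these data known. Named genes were up to 4 per list group by the largest summed pileup among genes with a promoter peak in all 4 libraries, all genes of the JAK2 and CDKN2A neighbourhoods, RIGI, genes with a promoter peak in 1 genotype only, and the nearest gene of the 3 strongest single-genotype peaks per arm. Strongest means the highest −log10 q. Alternatives were other limits on q, overlap, summed pileup, fold, bin size and window, equal list sizes, no centring, and parts of the arms left out.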

Additional observations from a re-analysis of the deposited data

Results flagged for a closer look

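With 1 library per group, the number of listed peaks moved in opposite directions under IFN-γ in the genotypes, more peaks in WT cells and fewer in FLI1-KO cells. Treated minus untreated, 9p gained 63 peaks in WT cells and had −16 in FLI1-KO cells, and 9q had 252 and −91. The same signs held in bin 4 (30 and −10), bin 5 (2 and −2), bin 7 (3 and −3), bin 9 (36 and −6), bin 10 (12 and −23), bin 12 (32 and −7), bin 13 (57 and −41) and bin 14 (69 and −21). In bins 2, 3, 8 and 11 both genotypes had more peaks treated (13 and 5, 18 and 7, 13 and 5, 30 and 5), and bin 1 had 0 and −16. The difference was not tested. The whole lists moved the same way, from 59629 to 67470 peaks in WT cells and from 63203 to 59923 in FLI1-KO cells, as did tag density, from 8.04 to 8.84 and from 6.93 to 6.86 tags per kb, and their part in the counts was not tested.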

How the results depend on the processing

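The genotype ratios of 9p, of its first 30 Mb and of 9q kept their direction in the alternatives run. The rest of 9p, near 0 untreated, was −0.026 over 20 tags, −0.0066 centred off chromosome 9 and −0.11 beyond 3 kb of a TSS. Bin 12 untreated reversed, at 0.027 in its last 5 Mb. The cause was not tested for any value here. The 9p median depended on which part was taken, and the first and the last part were chosen as alternatives after seeing the data. Untreated it was 0.18 without 20 to 30 Mb, 0.78 up to 30 Mb and 0.0012 from 30 Mb, and under IFN-γ 0.78 up to 30 Mb, 0.085 from 30 Mb, 0.20 within 3 kb of a TSS and 0.52 beyond. With a summed pileup over 20 tags the part up to 30 Mb was 0.66 and 0.65. The 9q median untreated was −0.27 over 20 tags, −0.25 with no centring and −0.27 beyond 3 kb of a TSS, and −0.34 under IFN-γ with no centring. With a fold of 2, 4.79% and 5.84% of 9q peaks were lower and 14.4% and 13.0% of 9p peaks higher. The ratio of IFN-γ over untreated with no centring was −0.061 on 9p and −0.054 on 9q in WT cells and −0.17 and −0.15 in FLI1-KO cells, and 9q in WT cells was −0.023 within 3 kb of a TSS and 0.026 beyond.

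At a −log10 q of at least 10 the 9p counts were 320, 360, 374 and 359 in WT, WT-IFNg, sgFLI1 and sgFLI1-IFNg. Those of 9q were 1358, 1505, 1201 and 1111. The excess in 9p counts under IFN-γ was thus gone, but not that in shares of the list. Over the limits on q and the lists of equal size, 9p made up 0.871% to 0.893% of WT-IFNg and 1.06% to 1.08% of sgFLI1-IFNg. At a −log10 q of at least 10 the 9q shares of the sgFLI1 lists were 3.31% and 3.30%. Peaks without a counterpart were counted again at a −log10 q of at least 5 or 10, with lists of equal size, with summits within 200 bp and with a reciprocal overlap of 50%. For WT against sgFLI1, 9p gave 12.8% at 10, 26.7% by summits and 29.3% by reciprocal overlap, and 9q gave 20.2% at 5, 22.2% at 10, 35.0% and 35.9%. For sgFLI1 against WT, 9p gave 25.1% at 10, 41.8% and 43.9%, and 9q gave 13.5% at 5, 11.8% at 10, 14.9% at equal size, 28.4% and 29.4%. For WT-IFNg against sgFLI1-IFNg, 9p gave 19.1% at equal size, 34.1% and 37.1%, and 9q gave 27.7% at 5, 26.2% at equal size, 40.6% and 41.9%. For sgFLI1-IFNg against WT-IFNg, 9p gave 27.3% at 5, 25.1% at 10, 40.1% and 42.8%, and 9q gave 8.63% at 5, 7.74% at 10, 14.6% at equal size, 23.4% and 25.1%. Within 50 bases on either side of the summit an AP-1 motif was in 14.5% of 9p and 15.1% of 9q regions, an ETS core in 0.640% and 0.589%, and a CTCF motif in 5.04% on 9q. No paired analysis was possible because each group holds 1 library. Depth limits the weak peaks most, and peaks near the calling limit can be listed in 1 library and missed in another of lower tag density.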
